A study of Mus musculus with 7 samples.

Results

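Serum amyloid A (SAA) proteins are small apolipoproteins of plasma, encoded in the mouse by the neighbouring genes Saa1, Saa2, Saa3 and Saa4. The family was taken as the genes of the count table that carry these 4 symbols, which made 4 of 56691 genes. All 4 were among the 13683 genes with enough counts to be tested, and each had at least 166 counts in every mouse.

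Liver RNA was sequenced from 4 control mice and from 3 mice given lipopolysaccharide (LPS), the endotoxin of Gram-negative bacteria. All were male C57BL/6J mice, bought at 8 weeks of age and housed for 2 weeks. The LPS mice received 10 mg/kg into the peritoneal cavity and were killed 24 h later; whether the control mice had an injection is not stated in the labels. The libraries held polyadenylated RNA and kept the strand of the transcript.

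Total counts were 14991022, 15096573, 15721944 and 18584140 in control replicates 1 to 4 and 20500391, 17095607 and 17821331 in LPS replicates 1 to 3. LPS replicates 2 and 3 were closer to each other than other mice of a group: the SD of their log2 ratio over 1129 well-counted genes was 0.11, against 0.303 to 0.565 in the other pairs. They were kept as separate mice, as labelled. The share of counts on mitochondrially encoded genes was 23.7%, 14.6%, 7.48% and 8.96% in the control mice and 6.45%, 3.83% and 3.94% in the LPS mice. Leaving these genes out of the library size left the fold changes of all 4 members nearly as given below.

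The tissue label was checked with marker genes. Of 15 hepatocyte markers, 14 were in the table and all of these were tested. In the LPS mice 4 were higher and 1, Ttr, was lower (over all tested genes, 7.81% and 7.31%). Albumin (Alb) had the highest mean, but in LPS replicates 2 and 3 Fgb and Trf, which rose, were above it in CPM, which takes no account of transcript length. Albumin itself had a log2 difference of -0.93 (edgeR adjusted p = 0.0137), below the fold threshold. Together the 14 markers made 86130, 92890, 121300 and 106600 CPM (counts on a common library size, scaled by TMM factors that assume most genes do not change) in the control mice and 94260, 115000 and 116000 CPM in the LPS mice. Of 8 markers of pancreas and gut epithelium, Prss2, Cpa1, Pnlip, Amy2a5 and Cdx2 were at 0 counts in every mouse. The other 3 had counts: Lgals4, the most abundant, 105 to 293, Cela2a 2 to 23 and Vil1 up to 12, and the list summed to 7.34 to 14.1 CPM.

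SAA1 and SAA2 are made mainly by hepatocytes, are released into plasma within hours of an inflammatory signal and travel on high-density lipoprotein. Interleukin 6, interleukin 1 and tumour necrosis factor drive their transcription through STAT3, NF-kappa B and C/EBP factors, and their amino-terminal part forms the fibrils of amyloid A disease. SAA3 is in the mouse an acute phase protein that macrophages and fat cells also make, and SAA4 is the member present in plasma without inflammation.

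All 4 members were higher in the LPS mice, against 7.81% of all tested genes called higher, 7.31% called lower and 15.1% called in either direction (adjusted p below 0.05 and absolute log2 fold change above 1, edgeR's quasi-likelihood test with Benjamini-Hochberg adjustment). The 3 acute phase members rose by 7.99 to 9.64 on the log2 scale and Saa4, known as the constitutive member, by 3.11. P-values measure only the spread between these samples, which the labels give as separate mice.

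Saa1 (ENSMUSG00000074115), which encodes a major acute phase isoform, had 93.2, 141, 65.4 and 49.0 CPM in control replicates 1 to 4. In LPS replicates 1 to 3 it had 16499, 23880 and 25861 CPM. The groups did not overlap, and the lowest LPS mouse was 117 times the highest control mouse. Mean levels were 87.2 ± 40.3 CPM (SD, n = 4) and 22080 ± 4930 CPM (SD, n = 3). The change on the log2 scale was 7.99 (SE 0.40, edgeR adjusted p = 3.68e-08).

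Saa2 (ENSMUSG00000057465), the other plasma acute phase isoform, had 60.6, 53.0, 30.8 and 28.7 CPM in the control mice. It had 18036, 26594 and 28817 CPM in the LPS mice. Again no LPS mouse overlapped a control mouse, and LPS replicate 1 was the lowest of its group for Saa1 and for Saa2. The log2 fold change was 9.15 (SE 0.38, edgeR adjusted p = 9.89e-09).

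Saa3 (ENSMUSG00000040026) was the member with the lowest counts in control liver, 207, 166, 199 and 177, which made 14.6, 10.5, 12.1 and 8.55 CPM. In the LPS mice it had 7782, 9788 and 9691 CPM. The gap between the groups was the widest of the 4 members, with the lowest LPS mouse at 532 times the highest control mouse. Its log2 fold change was 9.64 (SE 0.28, edgeR adjusted p = 2.49e-10).

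Saa4 (ENSMUSG00000040017) had 178, 269, 215 and 172 CPM in the control mice, and 1766, 1804 and 1834 CPM in the LPS mice. The groups did not overlap here either, and the lowest LPS mouse was 6.56 times the highest control mouse. The log2 fold change was 3.11 (SE 0.18, edgeR adjusted p = 1.27e-07). Saal1, which shares part of the name but is not a member of the family, had 5.69 ± 0.44 CPM (SD, n = 4) and 6.12 ± 0.93 CPM (SD, n = 3), with overlapping groups and a log2 difference of 0.11 (SE 0.23, edgeR adjusted p = 0.783).

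**Figure D1:**
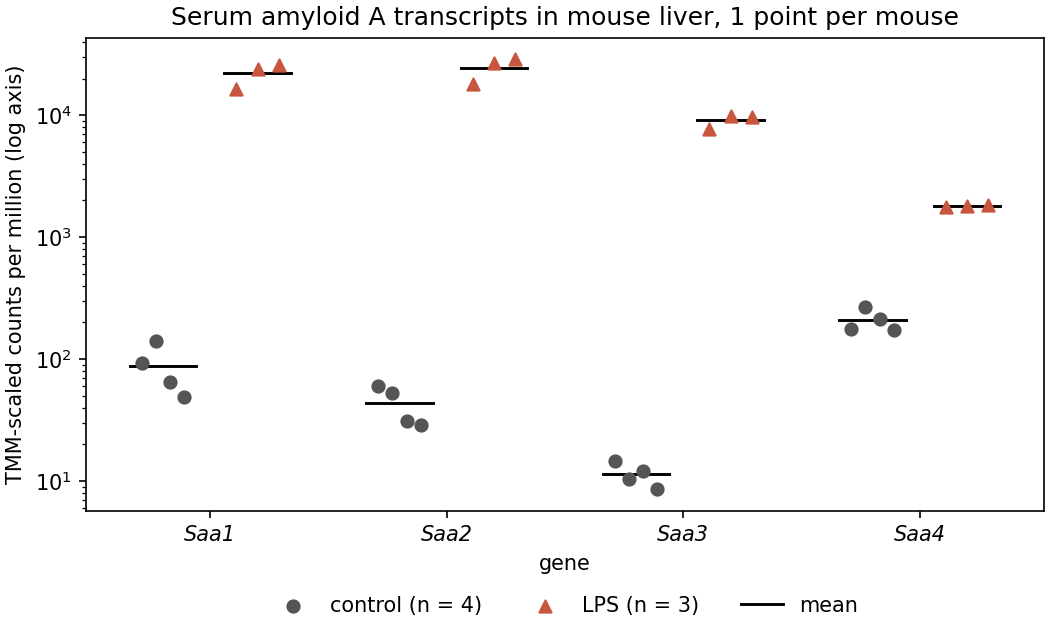
CPM (TMM-scaled, log axis) of the 4 serum amyloid A genes, with 1 point per mouse and a bar at the mean of 4 control and 3 LPS mice. The groups do not overlap for any of the 4 genes, and Saa4 lies between 172 and 269 CPM in control mice and between 1766 and 1834 CPM in LPS mice.

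The family took a large part of the LPS libraries. Saa1 to Saa4 together held 0.0362% ± 0.0093 (SD, n = 4) of all counts in the control mice, between 0.0288% and 0.0498%. In the LPS mice they held 4.67%, 5.64% and 5.97%, a mean of 5.43% ± 0.68 (SD, n = 3). Saa2 alone took 2.31% ± 0.36 and Saa1 2.08% ± 0.30 of the counts (SD, n = 3), while Saa3 took 0.863% ± 0.034 and Saa4 0.172% ± 0.013 (SD, n = 3). With genes outside the family that exceed 1% of any library left out of the total, the family's mean share in the LPS mice was 7.82%.

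The make-up of the family's counts also differed between the groups. Saa4 gave 51.4%, 56.8%, 66.5% and 66.7% of the family's counts in the control mice. In the LPS mice it gave 4.01%, 2.91% and 2.77%. Saa2 gave between 9.52% and 17.5% in the control mice and between 40.9% and 43.5% in the LPS mice. These are shares of counts, and the Saa4 transcript is longer than the others, so they are not shares of molecules.

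**Figure D2:**
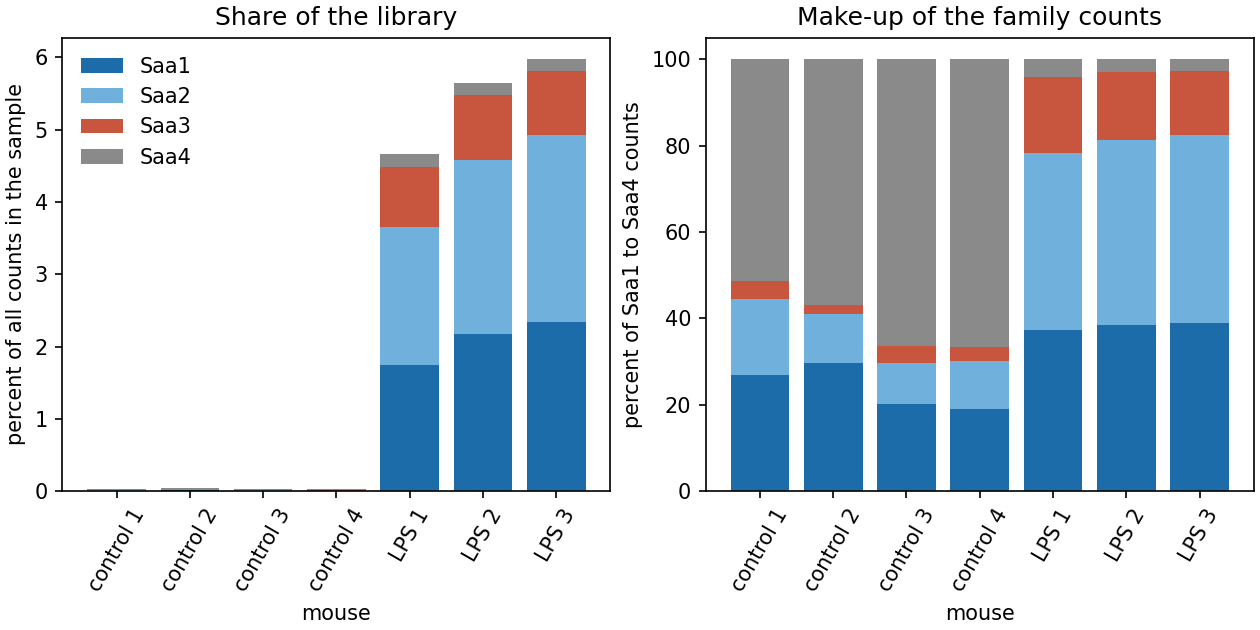
Stacked bars of the percent of all counts in each mouse that fell on Saa1 to Saa4 (left) and of the percent of the family's counts on each member (right), both from 0. The family held 4.67% to 5.97% of the counts in LPS mice, and Saa4 gave 51.4% to 66.7% of the family's counts in control mice and 2.77% to 4.01% in LPS mice.

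Whether the paralogs changed by different amounts was tested on ratios within a mouse, where library size cancels. The log2 of the Saa1 to Saa4 count ratio was -0.93, -0.93, -1.72 and -1.82 in the control mice and 3.22, 3.73 and 3.82 in the LPS mice. The mean rose by 4.94, a change of 30.7 times in the ratio. The ratio of Saa2 to Saa4 rose by 6.06 and that of Saa3 to Saa4 by 6.52, with no overlap between groups in either. Each of the acute phase members thus moved further than Saa4 in these mice.

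The acute phase members also differed among themselves. Saa1 had 1.54, 2.66, 2.13 and 1.71 counts per count of Saa2 in the control mice, and 0.915, 0.898 and 0.897 in the LPS mice. Saa1 counts were above Saa2 counts in every control mouse and below them in every LPS mouse, and the mean log2 ratio fell by 1.12. The Saa1 to Saa3 log2 ratio fell by 1.58, again without overlap. The Saa2 to Saa3 log2 ratio was 1.87 ± 0.43 (SD, n = 4) and 1.41 ± 0.18 (SD, n = 3), and here the groups overlapped.

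The tests of these ratios depend on how a two-sided p is counted. Counting the splits whose absolute difference was at least as large, the exact permutation test over the 35 ways to choose 3 of 7 mice gave p = 0.0286, the smallest it can give, for each ratio other than Saa2 to Saa3 (adjusted over the 6 ratios, p = 0.0343). With the smaller tail doubled instead, the exact permutation p was 0.0571 for the same 5 ratios (adjusted p = 0.0686), above 0.05. The doubled version was computed first, by mistake, and both were known before this was written. For Saa2 to Saa3 the exact permutation p was 0.171 under both. The differences themselves are the same under both conventions, and this test allows no finer p with 7 mice.

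**Figure D3:**
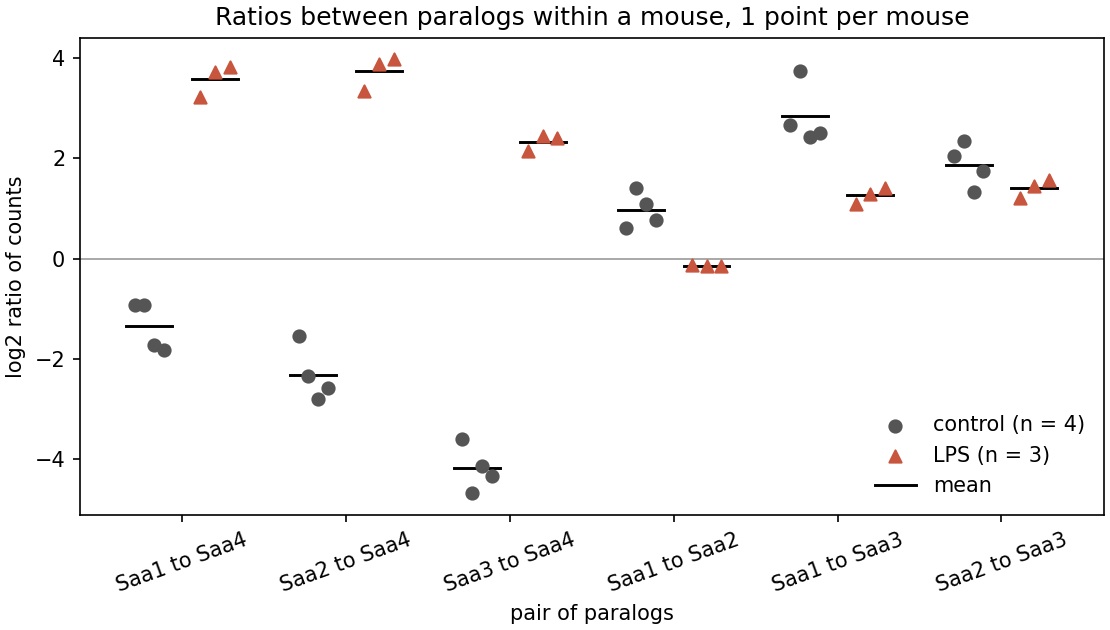
Log2 ratios of the counts of 6 pairs of paralogs, with 1 point per mouse and a bar at the mean of 4 control and 3 LPS mice. The groups are apart in the 3 ratios to Saa4 and in Saa1 to Saa2 and Saa1 to Saa3, and they overlap in Saa2 to Saa3.

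Mouse-to-mouse spread was set beside that of other tested genes with a mean CPM within 2 times. In the control mice the coefficient of variation of Saa1 was 46.3%, against a median of 15.1% over 1830 genes of like level, and the highest mouse had 2.88 times the lowest. Saa2 varied by 36.9%, also above the upper quartile of 22.0% of its 3062 genes. Saa3 and Saa4 varied by 22.5% and 21.4%, within the quartiles of genes at their level. Control replicates 1 and 2 lay close over the well-counted genes (SD of the log2 ratio 0.32), as did 3 and 4 (0.303). Pairs across them had 0.405 to 0.565. Saa1, Saa2 and the mitochondrial share were higher in both replicates 1 and 2 than in 3 and 4, while Saa3 and Saa4 did not follow that split. The part of this library-wide split in the spread of Saa1 and Saa2 was not tested. In the LPS mice Saa1 and Saa2 varied by 22.3% and 23.3%, but only 11 and 10 other genes reached their level.

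Which member varied least in the LPS mice depended on the scaling. In CPM Saa4 varied by 1.88%, against a median of 12.3% over 77 genes of like level, and Saa3 by 12.5%, near the median of 13.7% over 21 genes. As shares of all counts, a scale added after the data were seen, Saa4 varied by 7.53% and Saa3 by 3.95%, and LPS replicate 1 had the highest Saa4 share but the lowest Saa4 CPM. These spreads rest on 3 or 4 mice, and the LPS group holds the pair of libraries that lay close together.

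Levels of the members were also set beside each other per kilobase of transcript, since counts and CPM depend on transcript length. The lengths used were 609 bases for Saa1, 652 for Saa2, 555 for Saa3 and 2094 for Saa4. In the control mice the order of mean level was Saa1 (143 ± 66.2 CPM per kilobase), Saa4 (99.6 ± 21.3), Saa2 (66.4 ± 24.5) and Saa3 (20.6 ± 4.65; all SD, n = 4). Within a mouse, Saa1 was above Saa4 in 3 of 4 and Saa4 above Saa2 in 3 of 4, and Saa3 lay below them in all 4. Saa2 had 37550 ± 8730 and Saa1 36260 ± 8100 in the LPS mice, and Saa2 was slightly above Saa1 within each of the 3 mice. Saa3 had 16370 ± 2040 and Saa4 had 860 ± 16.2 CPM per kilobase (SD, n = 3). Among all genes with a known length, Saa2 was in position 1 and Saa1 in position 2 in every LPS mouse, and Saa3 in position 6.

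The place of Saa4 in that order depends on the length used. Per kilobase of coding sequence, chosen as a second length after the data were seen, Saa4 had 535 ± 114 and Saa1 238 ± 110 CPM in the control mice (SD, n = 4), which puts Saa4 above Saa1. In the LPS mice Saa4 was the lowest member with either length.

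The proteins have 122 residues for SAA1, SAA2 and SAA3 and 130 for SAA4. SAA1 and SAA2 are identical at 92.6% of aligned positions, and SAA3 matches SAA1 at 64.8%. SAA4 is the most distant, at 52.3%, 50.8% and 50.8% to SAA1, SAA2 and SAA3. Because of this likeness, reads may fit more than 1 gene. Of all stretches of 50 bases in the Saa1 transcript, 13.2% also occur in a Saa2 transcript and 1.61% in a Saa3 transcript, and 9.12% of those of Saa2 occur in Saa1. No stretch of 100 bases was shared between any members. The read length and how multi-mapped reads were counted are not given in the sources used here, so the split between Saa1 and Saa2 is uncertain to that extent, while Saa4 shared no stretch of 50 bases with another member.

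The pseudogene Saa-ps had 0 counts in all 7 mice. It lies between Saa4 and Saa1 in the RefSeq gene order on chromosome 7, in which Saa3, Saa4, Saa-ps and Saa1 share a strand and Saa2 faces the other way.

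The 250 bases before the start of each gene are shown because Saa4 moved less than the acute phase members, which also differed among themselves. All 4 members were found in the RefSeq promoter table (GRCm38.p6; the counts were made on GRCm39). Capitals mark matches, on either strand, to TTNNGNAA (a C/EBP-like motif) or to TTCNNNTAA (a STAT-like motif).
Saa1, chr7:46742981-46743230, minus strand: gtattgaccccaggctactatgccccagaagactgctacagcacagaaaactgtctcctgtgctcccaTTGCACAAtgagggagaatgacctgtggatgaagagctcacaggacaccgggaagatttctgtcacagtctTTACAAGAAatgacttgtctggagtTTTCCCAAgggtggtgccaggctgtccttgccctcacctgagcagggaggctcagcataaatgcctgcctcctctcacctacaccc
Saa2, chr7:46751583-46751832, plus strand: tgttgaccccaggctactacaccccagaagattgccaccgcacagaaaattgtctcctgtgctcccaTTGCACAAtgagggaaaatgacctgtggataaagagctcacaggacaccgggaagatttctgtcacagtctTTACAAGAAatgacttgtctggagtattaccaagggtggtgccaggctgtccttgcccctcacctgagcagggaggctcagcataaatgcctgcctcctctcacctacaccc
Saa3, chr7:46715677-46715926, minus strand: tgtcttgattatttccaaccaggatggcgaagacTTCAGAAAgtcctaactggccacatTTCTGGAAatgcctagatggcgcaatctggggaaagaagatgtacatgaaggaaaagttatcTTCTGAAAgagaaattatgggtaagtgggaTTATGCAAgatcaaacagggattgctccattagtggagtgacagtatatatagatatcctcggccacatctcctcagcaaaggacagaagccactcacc
Saa4, chr7:46732604-46732853, minus strand: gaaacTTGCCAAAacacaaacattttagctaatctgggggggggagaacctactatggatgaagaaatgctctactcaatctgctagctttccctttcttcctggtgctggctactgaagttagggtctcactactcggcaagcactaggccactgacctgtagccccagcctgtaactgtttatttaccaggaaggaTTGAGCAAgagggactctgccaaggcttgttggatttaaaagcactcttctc

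The Saa1 and Saa2 promoters were alike at 94.8% of aligned bases, while Saa3 matched Saa1 at 48.2% and Saa4 matched it at 46.3%. TTNNGNAA occurred 2 times before Saa1, 1 time before Saa2, 4 times before Saa3 and 2 times before Saa4, and in 36.8% of 32851 promoters of this length. TTCNNNTAA occurred 1 time before Saa1 and 1 time before Saa2, as TTACAAGAA in both, and in 9.08% of all promoters. The letters TATAAA (12.4% of promoters), GGACTTTCC (0.283%) and GGANNTTCC (3.59%), both NF-kappa B-like, and TTCNNNGAA (7.02%) were in none of the 4 windows. A match is a description of letters and not of binding.

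The genes with the profile most like each member were found by the root mean square distance over the 7 mice between values of log2(CPM + 0.5), centred on the control mean, among the 7065 genes outside the family whose mean reached 10 CPM. Lcn2, which encodes the siderophore-binding lipocalin 2, was nearest to Saa2 (0.37) and to Saa3 (0.21), followed by the antimicrobial lectin Reg3b (0.47 and 0.26) and the protease inhibitor A2m (0.49 and 0.65). For Saa1 the nearest were Reg3g (0.51), A2m (0.56) and the orosomucoid gene Orm2 (0.57). Saa4 had other neighbours: Cyb561 (0.12), a cytochrome b561, the glycoprotein gene Lrg1 (0.20) and Itih4 (0.23). The added 0.5 CPM shrinks the change of genes that are near 0 in control liver, and Reg3b and Reg3g had at most 4 counts there. With 0.05 CPM added instead, chosen after the data were seen, Reg3g was 1.72 from Saa1, and Reg3b 1.31 from Saa2 and 0.99 from Saa3. The nearest genes were then A2m for Saa2 (0.38), Lcn2 for Saa3 (0.23), E030018B13Rik (named after its value was seen) for Saa1 (0.53) and Lrg1 for Saa4 (0.20), with Cyb561 at 0.27 from Saa4. With 0.5 CPM added, the members themselves were 0.40 apart for Saa2 and Saa3, 0.76 for Saa1 and Saa2, 1.08 for Saa1 and Saa3, and at least 3.25 for Saa4 and any other.

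Upstream of the family, 6 of 10 genes in a list of cytokines had too few counts to be tested. The list includes Il1rn, which encodes an antagonist of interleukin 1 and is not an inducer. Of the 10, 4 had enough counts to be tested and these were higher (over all tested genes, 7.81%). Their median log2 fold change was 4.26, or 3.35 with Tnf at its lower bound (all tested genes, -0.0139). Without Il1rn the middle value of the other 3 is that of Il1b, 3.21. Tnf had enough counts only with the LPS mice, so the tally in part restates which genes could be tested. Il1b, which encodes interleukin 1 beta, had 1.68 ± 0.56 CPM in control and 15.6 ± 4.25 CPM in LPS mice (SD, n = 4 and n = 3), and Il1rn rose by 6.53 (SE 0.35, edgeR adjusted p = 5.1e-08). Tnf had 0, 3, 0 and 0 counts in the control mice and 83, 21 and 16 in the LPS mice. Il6 was not tested, with 0, 7, 0 and 0 counts against 11, 9 and 10.

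In a list of 15 receptors and related genes upstream of Saa, 9 were higher and 2 lower (over all tested genes, 7.81% and 7.31%). The median log2 fold change of the 15 was 1.31. The 9 include Lbp, which encodes a plasma protein and is also in the acute phase list below, and the decoy receptor gene Il1r2. The interleukin 6 receptor gene Il6ra rose by 1.35 (SE 0.18), and its signalling partner Il6st, with a log2 difference of 0.21 (SE 0.15, edgeR adjusted p = 0.347), was not called. The interleukin 1 receptor gene Il1r1 went from 43.9 ± 9.82 to 217 ± 3.99 CPM, and the decoy receptor gene Il1r2 from 0.0994 ± 0.085 to 9.11 ± 2.42 CPM (SD, n = 4 and n = 3). The log2 fold change of Il1r2 was 6.36, and 6.97 without control replicate 4; it had enough counts to be tested only with the LPS mice. The endotoxin co-receptor gene Cd14 rose by 5.66 (SE 0.29) and the LPS binding protein gene Lbp by 2.76 (SE 0.25). The LPS receptor gene Tlr4 was not called, with a log2 difference of 0.31 (SE 0.53, edgeR adjusted p = 0.717). Nor was Ly96, which encodes its partner, with -0.086 (SE 0.35, edgeR adjusted p = 0.888). Tlr4 and Ly96 are named after their values were seen. The 2 that fell were Lifr, the leukaemia inhibitory factor receptor, with a log2 fold change of -3.13 (SE 0.25), and Il1rap, the interleukin 1 receptor accessory protein, with -1.62 (SE 0.14).

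Of 30 signalling and transcription factors, 28 were tested and 8 were higher (over all tested genes, 7.81%). The median log2 fold change was 0.31. Called lower were 0 with edgeR and 0 with DESeq2, and at an unadjusted p under 0.05, 12 were higher and 3 lower, with no fold threshold (18.7% of all tested genes in each direction). Stat3 had 52.8 ± 12.7 CPM in the control and 166 ± 11.6 CPM in the LPS mice (SD, n = 4 and n = 3). Socs3, a feedback inhibitor of that pathway, rose by 2.90 (SE 0.32), Cebpd by 2.34 (SE 0.36) and the nuclear NF-kappa B cofactor Nfkbiz by 2.18 (SE 0.26). The NF-kappa B subunits Nfkb1 and Rela had log2 differences of 0.21 and 0.12 with overlapping groups, and edgeR adjusted p-values of 0.354 and 0.634. The subunit genes Nfkb2 and Relb, named here after their values were seen, were higher, by 1.48 (SE 0.25, edgeR adjusted p = 0.000935) and 1.75 (SE 0.38, edgeR adjusted p = 0.00466), and Rel was not called. Cebpb had a log2 difference of 0.92 (SE 0.19, edgeR adjusted p = 0.00299), below the fold threshold.

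SAA travels on high-density lipoprotein, and of 20 partner genes 2 were higher and 4 lower, with a median log2 fold change of -0.41. Of all tested genes 7.81% were higher and 7.31% lower. The main apolipoprotein gene Apoa1 had a log2 difference of -0.70 (SE 0.20, edgeR adjusted p = 0.0231), not past the fold threshold, although the groups did not overlap. Apoa2 fell from 5339 ± 2100 to 1637 ± 46.7 CPM, the antioxidant enzyme gene Pon1 from 928 ± 60.5 to 294 ± 14 CPM, and the hepatic lipase gene Lipc from 168 ± 6.41 to 17.4 ± 2.21 CPM (SD, n = 4 and n = 3). Lcat, which esterifies cholesterol on the particle, rose by 1.36 (SE 0.17) and Apoa4 by 2.42 (SE 0.31).

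Of 12 SAA receptors, 10 were tested, 4 were higher (over all tested genes, 7.81%) and 6, among them Tlr4, were not called. Their median log2 fold change was 0.73. The formyl peptide receptor genes Fpr2 and Fpr1 rose by 4.30 (SE 0.39) and 3.55 (SE 0.39), Tlr2 by 2.57 (SE 0.39) and the scavenger receptor gene Cd36 by 2.59 (SE 0.15). Neutrophils and monocytes also express Fpr1, Fpr2 and Tlr2, and the summed markers of these cells, given below, were higher too. The part of those cells in the rise was not tested. Scarb1, the receptor for high-density lipoprotein, had a log2 difference of -0.32 (SE 0.24, edgeR adjusted p = 0.373) with overlapping groups.

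Of 11 genes for SAA and amyloid degradation or deposits, 9 were tested and 4 were higher (over all tested genes, 7.81%). The median log2 fold change was 0.76. Apcs, which encodes the amyloid P component, went from 142 ± 45.5 to 3633 ± 756 CPM (SD, n = 4 and n = 3). The cathepsin L gene Ctsl rose by 2.02 (SE 0.18) and the gelatinase gene Mmp9 by 4.48 (SE 0.66; 5.43 without control replicate 4; enough counts only with the LPS mice), while cathepsin B (Ctsb) had a log2 difference of -0.17 (SE 0.17, edgeR adjusted p = 0.512).

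The family was also set beside a list of 24 genes, most of them for other acute phase plasma proteins. Of these 24, 22 were higher (over all tested genes, 7.81%), with a median log2 fold change of 3.36. The list also holds the metallothionein genes Mt1 and Mt2 and the membrane reductase gene Steap4, all 3 among the higher, and Saal1. Mt1 and Steap4 are named after their values were seen. These 4 do not encode plasma proteins. Saa4, at 3.11, lay near that median, and Saa1, Saa2 and Saa3 lay above it. Lcn2 (9.73, SE 0.35) was close to Saa3 and A2m (9.02, SE 0.29) to Saa2, and Mt2 went from 1.67 ± 0.51 to 851 ± 177 CPM (SD, n = 4 and n = 3). Haptoglobin (Hp) rose by 3.37 (SE 0.24), Orm1 by 3.96 (SE 0.26) and Orm2 by 7.19 (SE 0.33).

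Cells other than hepatocytes can express Saa3, and their markers differed between the groups. Over all tested genes, 7.81% were called higher and 7.31% lower. In bulk tissue, more cells of a type and more RNA per cell cannot be told apart. Of 11 neutrophil markers, 7 were tested and these were higher, but 5 of the 7 had enough counts only with the LPS mice, so the tally in part restates which genes could be tested. The untested markers Ly6g, Camp, Mpo and Elane had at most 8 counts in any mouse of either group. Over all genes, 918 had enough counts only with the LPS mice and 290 of them were higher. The summed level of the 11, led by S100a9, was 5.23, 4.54, 2.01 and 2.85 CPM in the control mice and 214, 156 and 157 CPM in the LPS mice. Of 7 monocyte markers 6 were higher, 4 of them with enough counts only with the LPS mice, with a sum led by Lyz2 of 45.3, 46.6, 47.4 and 27.6 CPM against 216, 169 and 185 CPM. Of 11 Kupffer cell and macrophage markers 4 were higher and 1, Clec4f, was lower. Clec4f led in the control mice, with 43.4 to 69.8 CPM, and Marco in the LPS mice, with 409, 66.4 and 65.5 CPM. Cd5l, not called, had 24.1 to 45.0 CPM in the control mice and 75.7, 4.89 and 3.30 CPM in the LPS mice. The sum of the 11 was 149, 207, 192 and 130 CPM against 738, 160 and 166 CPM. LPS replicate 1 stood apart from the other LPS mice in these macrophage markers. It was the lowest LPS mouse in CPM for all 4 members. As a share of all counts it had the highest Saa4, 0.187% against 0.164% and 0.1655% in LPS replicates 2 and 3. The part of these cells in the Saa3 level was not tested.

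Fat cells are another source of Saa3. Of 7 adipocyte markers 3 were tested. Fabp4, the most abundant, and Cidec were higher, and Pparg fell (log2 fold change -1.155). Lep was at 0 in every mouse. Adipoq and Plin1 had 5 and 2 counts in control replicate 1 and 0 in all other mice. Retn had 1 count, in LPS replicate 1. The sum of the 7 was 21.4, 26.0, 26.0 and 15.9 CPM in control mice and 104, 92.3 and 92.8 CPM in LPS mice. Most of the rise in this sum was Fabp4, with 5.22 to 11.03 CPM in control mice. In LPS replicates 1 to 3 Fabp4 had 88.39, 75.35 and 74.37 CPM. The part of fat cells in the Saa3 level was not tested.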

How the data were processed

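The authors deposited raw counts of reads per gene for 7 liver samples, with no normalization. The submitters' processing notes name cutadapt 1.9.1, HISAT2 2.2.1, HTSeq 0.6.1, DESeq2 1.34.0 and the build GRCm39; the annotation, the counting mode and how multi-mapped reads were handled are not given in the sources used here.

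Counts were filtered with filterByExpr, scaled by TMM and compared with the quasi-likelihood test of edgeR 4.0.16 in R 4.3.3, with Benjamini-Hochberg adjustment over all tested genes; the procedure was tested on simulated data. The SE was derived from the F statistic. Ratios of members used counts plus 0.5 and an exact permutation test in SciPy 1.17.1. The two-sided p is the share of splits with at least the observed absolute difference; the version with the doubled tail was computed first by mistake, so both were known when the ratios were written up. Lengths and protein identities came from GENCODE M21, aligned with Biopython 1.88, and promoters from RefSeq.

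The family and the gene lists were chosen with earlier results of these data known. Named genes were the 4 members, up to 3 called genes in each direction with the smallest p from each list, a set of 26 genes of SAA biology named whatever their value, and the 3 genes most like each member. Genes of the marker lists, and Saal1, were named beside them. Mt1, Steap4, Hamp, Nfkb2, Relb, Rel, Tlr4, Ly96 and E030018B13Rik fall outside this rule and were named after their values were seen. A floor of 3 counts per library was used where all controls were at or under it. This floor takes account of counting error alone, because PCR copies of a molecule were not told apart.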

Additional observations from a re-analysis of the deposited data

Results flagged for a closer look

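In groups of 4 control mice, 57 sets of values were searched for a mouse far from the other 3, and 4 were found; chance alone marks about 1 in 20. All 4 are genes with few counts in control liver. Il1rn was lowest in control replicate 2, at 0.441 CPM. Il6 was at 0.441 CPM in control replicate 2 and at 0 in the other control mice, and Tnf was at 0.189 CPM in the same mouse and at 0 in the others. Reg3g was at 0 CPM in control replicate 1. None of the 4 members was marked in this way. The LPS group of 3 was not searched.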

How the results depend on the processing

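Under DESeq2, the other scalings, library sizes and filters, the replicate block and LPS replicates 2 and 3 summed, the members were called higher in every alternative run. Over all 16 alternatives the log2 fold change lay between 7.78 and 8.30 for Saa1, 8.98 and 9.35 for Saa2, 9.51 and 9.77 for Saa3, and 2.99 and 3.24 for Saa4. With total counts and no scaling factor the median of all genes moved from -0.0139 to -0.129, and 926 genes were higher and 1176 lower in place of 1068 and 1000.

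With 1 mouse left out in turn, genes called higher numbered 945 to 1055 and genes called lower 792 to 1059. With no fold change threshold 1824 were higher and 1773 lower, and requiring 10 counts or more in all samples left 693 higher; both follow from what the setting tests.

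The labels do not say that mice with the same replicate number are paired. Same-numbered mice had correlations of their deviations of 0.322, -0.0714 and 0.0404. Those of other control and LPS mice lay between -0.357 and 0.277. So few values cannot decide whether the numbers pair the mice. With the number as a block, 1001 genes were higher and 915 lower.

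Doubling the smaller tail, which was computed first, by mistake, left the log2 differences at 4.94 for Saa1 to Saa4, 6.06 for Saa2 to Saa4, 6.52 for Saa3 to Saa4, -1.12 for Saa1 to Saa2 and -1.58 for Saa1 to Saa3, but moved their adjusted exact permutation p from 0.0343 to 0.0686. With a mouse left out these differences ranged from 4.78 to 5.12, 5.90 to 6.31, 6.35 to 6.71, -1.24 to -0.97 and -1.71 to -1.27, and that of Saa2 to Saa3 from -0.63 to -0.30. No test was made on them there, nor with LPS replicates 2 and 3 summed, where the smallest exact permutation p is 0.0667.

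The family share of 5.43% became 7.82% with other genes over 1% left out, since the total is smaller, and lay between 5.16% and 5.81% with an LPS mouse left out. The log2 of the Saa1 to Saa4 level per length in control mice was 0.52 per transcript and -1.17 per coding length, a choice added after the data were seen. Under the 10-count filter, 2 cytokine and LPS inducers and 2 SAA receptors were higher, since fewer were tested. Cebpb passed the fold threshold without control replicate 2 (1.11).

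In the LPS mice the coefficients of variation in CPM and as shares of counts were 22.3% and 14.5% for Saa1, 23.3% and 15.5% for Saa2, 12.5% and 3.95% for Saa3, and 1.88% and 7.53% for Saa4.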

Other observations

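Some markers of other liver cells were called, against 7.81% of all tested genes called higher and 7.31% called lower. Of 8 sinusoidal endothelium markers 2 were higher and 1, Clec4g, was lower, and their sum was 150 ± 28.4 CPM (SD, n = 4) in control and 129 ± 39.4 CPM (SD, n = 3) in LPS mice. Of 8 stellate cell markers 2, Lrat and Reln, were lower and the other 6 were not called, with sums of 314 ± 105 and 250 ± 26.4 CPM. Of 6 cholangiocyte markers only Sox9 was called, higher, and of 5 red blood cell markers 4 were lower, from a sum of 225 ± 59.6 to 81.1 ± 47.3 CPM (SD, n = 4 and n = 3). Of the markers of pancreas and gut epithelium 2 were tested and neither was called.

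Hamp, which encodes the iron hormone hepcidin, was not called, with a log2 difference of -0.17 (SE 0.19, edgeR adjusted p = 0.572). It is named after its value was seen.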
